A study of Rattus norvegicus with 12 samples.

Results

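The genes that carry hexoses across kidney cell membranes and make the first phosphate transfer to them were followed in rat kidney: the sodium-coupled carriers Slc5a1 (SGLT1) and Slc5a2 (SGLT2), the facilitative carriers Slc2a1 to Slc2a5 (GLUT1 to GLUT5), the hexokinases Hk1 and Hk2, and Khk, the ketohexokinase that phosphorylates fructose. The members were all gene probes of the array whose platform annotation, RefSeq accession or description names 1 of these 10 genes. They cover 10 of the 12722 genes that a probe names and came to 14 of the 33849 gene probes: Slc2a1, Slc2a3, Hk1 and Hk2 had 2 probes each and the other 6 genes had 1. A further probe, GE1137656, whose description calls it similar to SGLT2, carries another accession and the symbol Slc5a9, and was not counted as a member.

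Kidney RNA of male rats of the inbred Fischer strain (F344 in the labels) was hybridised to 12 single-colour oligonucleotide arrays, 4 for each of 3 groups. The first group was 24 months old and had been calorie restricted (CR), with 10% less food from 10 weeks of age, 25% less from 15 weeks and 40% less from 4 months on. The second group was 24 months old and fed ad libitum (AL), and the third was 4 months old, fed ad libitum, and is called young here. All rats were bought from an NIA colony and were anaesthetised with 87 mg/kg of ketamine plus xylazine at 13 mg/kg before the kidneys were removed and frozen. Whole kidney was measured, so fewer cells of a type and less RNA per cell cannot be told apart.

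The kidney filters glucose into the tubule and takes it back in the proximal tubule. There SGLT2, in the early segments, and SGLT1, further along, draw glucose in with sodium across the brush border, and GLUT2 and GLUT1 let it leave on the blood side. Fructose enters through other carriers, GLUT5 among them, and is phosphorylated by ketohexokinase, while the hexokinases trap glucose inside the cell for glycolysis, which is used most in the distal segments.

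Promoters of the 4 genes with a probe lower in both aged groups than in the young group are shown to give their sequence context. For Slc2a1 the differences passed the test described below on GE1174282 and not on GE19666. The sequences are as RefSeq has them on build GRCr8, from 250 bases before the gene start to 50 after it. They run 5′ to 3′ along the gene. Capitals mark matches, on either strand, to 2 motifs: GGGCGG (the GC box) and CACGTG (an E-box).
Slc2a5, chr5:165865929-165866228, plus strand: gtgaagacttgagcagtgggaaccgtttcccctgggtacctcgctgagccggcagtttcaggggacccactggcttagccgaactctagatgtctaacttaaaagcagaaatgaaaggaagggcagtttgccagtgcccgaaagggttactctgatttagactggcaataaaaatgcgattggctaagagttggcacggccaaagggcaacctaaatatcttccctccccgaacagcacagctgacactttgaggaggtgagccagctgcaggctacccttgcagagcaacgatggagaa
Slc2a1, chr5:138002272-138002571, plus strand: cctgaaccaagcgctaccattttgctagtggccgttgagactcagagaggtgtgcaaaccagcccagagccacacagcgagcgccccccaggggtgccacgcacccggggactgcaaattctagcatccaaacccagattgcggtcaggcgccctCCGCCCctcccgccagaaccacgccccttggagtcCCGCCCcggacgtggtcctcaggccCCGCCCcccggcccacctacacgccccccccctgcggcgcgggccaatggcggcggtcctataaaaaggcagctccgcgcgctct
Slc5a1, chr14:81843035-81843334, minus strand: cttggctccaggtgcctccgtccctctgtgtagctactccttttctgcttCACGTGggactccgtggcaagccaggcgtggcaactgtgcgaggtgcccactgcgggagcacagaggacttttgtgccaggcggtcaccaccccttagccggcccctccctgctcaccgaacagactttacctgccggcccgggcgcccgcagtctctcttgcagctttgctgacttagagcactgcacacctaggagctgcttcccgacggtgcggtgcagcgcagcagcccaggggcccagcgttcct
Khk, chr6:31175432-31175731, minus strand: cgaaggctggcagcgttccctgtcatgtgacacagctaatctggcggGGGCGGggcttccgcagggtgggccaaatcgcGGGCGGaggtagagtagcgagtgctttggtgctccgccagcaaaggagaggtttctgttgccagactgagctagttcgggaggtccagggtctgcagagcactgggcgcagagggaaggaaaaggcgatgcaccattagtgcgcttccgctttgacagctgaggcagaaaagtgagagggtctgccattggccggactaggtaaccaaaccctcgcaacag

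Promoter entries were found for 8 of the 10 genes, with none used here for Slc2a3 and Slc2a4. Slc2a1 held 3 GC boxes and Khk 2, Slc5a1 held 1 E-box, and the Slc2a5 window held none of the motifs. Of the Hk1 entries, 1 of 2 held 2 overlapping GC boxes, and the windows of Slc5a2, Slc2a2 and Hk2 held no match. Of all 33469 promoters of the same length, 33.1% held a GC box and 6.42% the E-box. A match is a description of the letters only.

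The arrays themselves bear on every result. The labels call the 4 arrays of a group biological replicates, but some pairs differed by no more than repeat spots on 1 array: over 9131 bright probes such pairs had SDs of 0.0626 to 0.0971 on the log2 scale. Counted that way the 12 arrays hold 5 samples: CR arrays 1 and 3, CR arrays 2 and 4, all 4 AL arrays, young arrays 1 and 2, and young arrays 3 and 4. The limit behind this grouping was settled after the data were seen, and a tighter one, from neighbouring control spots, joined only AL arrays 1 to 3 and left 10 samples. Young arrays 1 and 2 stood apart. Their control transcripts had mean log2 ratios of 3′ over 5′ signal of 4.33 and 4.48, against 1.77 to 2.23 on the other 10 arrays, a sign of RNA quality. Hk1 is itself a control transcript, and its 5′ spots read 6.48 and 6.71 on these 2 arrays and 8.57 to 9.03 on the others. Slide series and scan were inferred from the serial number and the rest of the image name in each report header. By these names all AL arrays were scanned apart from the rest. The AL arrays lay on 1 of 2 slide series with CR arrays 3 and 4, while the young arrays shared the other with CR arrays 1 and 2. No series or scan held AL and young arrays together, so for that comparison scan and age cannot be told apart. A difference between slide series can be estimated there only through the CR arrays, which lay on both series. No scan held AL and CR arrays together either, so scan and diet cannot be told apart, also within 1 slide series. The share of gene probes above background was 72.5 to 74.8% on CR, 71.5 to 73.7% on AL and 64.2 to 69.9% on young arrays. Of the 12 listed markers of the early proximal tubule 11 were tested, and the mean log2 level of the 10 with a value on all arrays (Slc34a1 was missing on some) was 10.33 to 10.56 on CR, 10.77 to 10.96 on AL and 9.99 to 10.97 on young arrays.

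**Figure D1:**
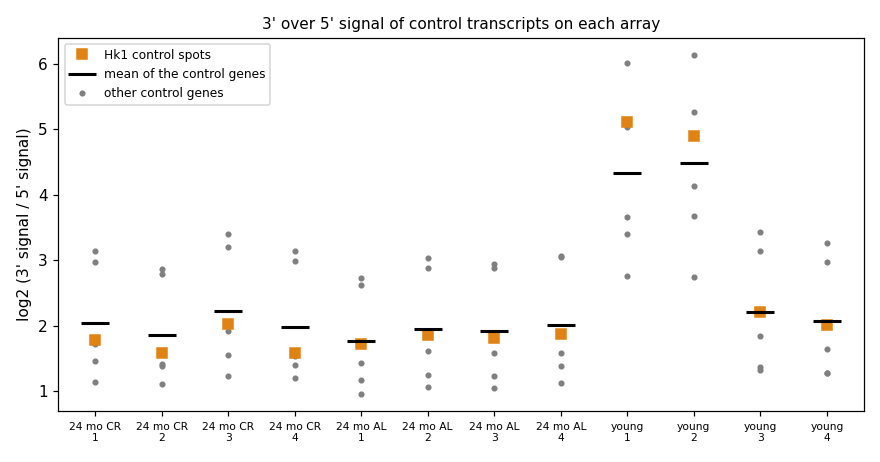
Log2 ratio of 3′ over 5′ signal (vertical axis) of 6 control transcripts on each of the 12 arrays (horizontal axis), with Hk1 as squares, the other 5 genes as dots and the mean of all 6 as a bar. The means of young arrays 1 and 2 are 4.33 and 4.48, and those of the other arrays lie between 1.77 and 2.23.

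Of the 14 probes 12 were above background on enough arrays to be tested, and every gene kept at least 1 probe. The other 2, Hk2 GE19931 and Slc2a3 GE21565, were above background on 0 of 12 arrays. Levels are log2 of the quantile-normalised intensity, and no probe's level can be set against another's. Differences were tested with limma over all 12 arrays, with Benjamini-Hochberg adjustment over all 25398 probes tested and a threshold of 0.05. Each difference is given with its SE from a second limma fit over the 5 samples, and the words rose, fell, higher and lower for a passed test refer to the 12-array fit. No member passed in the 5-sample fit in any comparison. Of all probes 0.114%, 0% and 0.91% passed there for AL against young, CR against AL and CR against young. At an unadjusted p under 0.05 that fit held 2, 1 and 4 member probes, beside 17%, 4.75% and 23.4% of all probes.

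AL kidneys differed from young kidneys most in GLUT5. In the 12-array fit 5 of the 12 probes passed the test, where 48.1% of all probes did: Slc2a5, Slc2a1 (1 of 2 probes), Slc5a1 and Khk were lower and Slc2a3 was higher. Of all probes 27.1% were lower and 20.9% higher. The array ranges did not overlap for 3 of the 12, against 45.5% of all probes. The share of members called was near the background. The median difference of the members was -0.24, beside -0.05 over all probes. Leaving out young arrays 1 and 2 gave 7 lower and 0 higher, where 24.1% of all probes were lower, 20.7% higher and 44.9% either. With slide series as a fixed term, a setting chosen after the data were seen, Slc2a5 alone passed, at -1.84 (adjusted p = 0.000292), while Slc2a1 GE1174282 gave -0.59 (adjusted p = 0.0644), Slc5a1 -0.34 (adjusted p = 0.166), Khk -0.28 (adjusted p = 0.274) and Slc2a3 0.33 (adjusted p = 0.504). Array median scaling gave 1 member probe higher and 8 lower, and 3896 of all probes higher and 9853 lower, against 5318 and 6886. Leaving out AL array 1, 3 or 4 gave 3 member probes, 0 higher and 3 lower. Of all probes 10224, 10386 and 10814 passed in these fits.

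CR kidneys differed from AL kidneys in Hk2, the only member probe that passed, 1 of 12 where 13.4% of all probes did. It was higher under restriction, as 7.39% of all probes were, while 5.98% were lower. Ranges did not overlap for 5 of 12, against 32.5% of all probes. Without young arrays 1 and 2, which share the fit, 5 of 12 passed, where 30.7% of all probes did (15.5% higher, 15.3% lower): Hk2, Slc5a2 and Slc2a1 GE1174282 were higher, and Slc5a1 and Khk were lower. The median difference of the members was 0.15, beside 0.01 over all probes. With array median scaling 1019 of all probes were higher and 1338 lower, against 1878 and 1519.

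Between CR and young kidneys 7 of 12 passed, where 44.3% of all probes did: Slc2a5, Slc5a1, Slc2a1 GE1174282 and Khk were lower, and Slc2a3, Hk2 and Hk1 GE19930 were higher. Of all probes 24.6% were lower and 19.7% higher. Ranges did not overlap for 7 of 12, against 40.8%, and the median difference was -0.16, beside -0.02 over all probes. Without young arrays 1 and 2, 4 were lower and 2 higher, where 22% of all probes were lower, 19.9% higher and 41.9% either. Within the slide series that holds both groups Slc2a5 passed, and so did Slc5a1 at -0.62 (adjusted p = 0.0197), but Slc2a1 GE1174282 gave -0.45 (adjusted p = 0.143), Khk -0.50 (adjusted p = 0.0811), Slc2a3 0.57 (adjusted p = 0.172), Hk2 0.57 (adjusted p = 0.0732) and Hk1 GE19930 0.30 (adjusted p = 0.134). With array median scaling 3382 of all probes were higher and 10661 lower, against 5015 and 6241. The 3 comparisons share arrays, so their calls are not independent of each other.

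**Figure D2:**
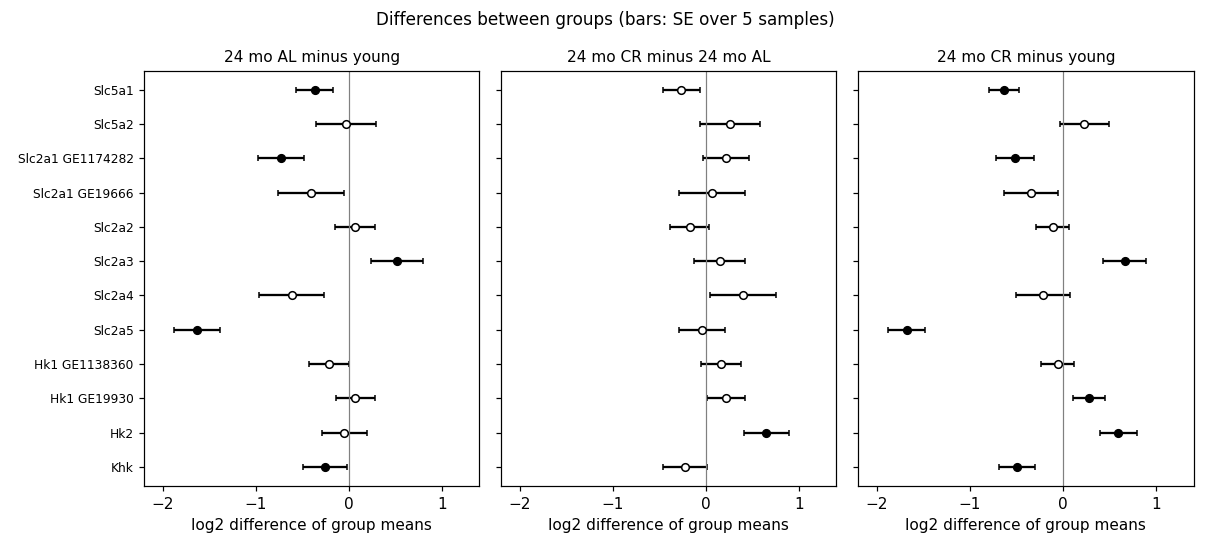
Log2 difference of group means (horizontal axis) of the 12 tested probes in the 3 comparisons, with bars of 1 SE over 5 samples; filled points passed the 12-array fit. Slc2a5 lies at -1.64 for AL minus young and at -1.68 for CR minus young, and Hk2 at 0.64 for CR minus AL.

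Among the sodium-coupled carriers, Slc5a1 (GE20128), which recovers the glucose that escapes SGLT2, was lower in both aged groups than in the young group. Its log2 level was 6.98, 7.05, 6.85 and 7.13 on the CR arrays, 7.12, 7.41, 7.33 and 7.21 on the AL arrays, and 7.71, 7.61, 7.69 and 7.54 on the young arrays. Both aged groups lay below every young array, and the CR and AL ranges met at 7.12 and 7.13. AL minus young was -0.37 (SE 0.20, limma adjusted p = 0.00475, and 0.411 over 5 samples), and CR minus young was -0.64 (SE 0.17, adjusted p = 0.000162, and 0.128 over 5 samples). CR minus AL was -0.26 (SE 0.20, adjusted p = 0.0663). Against young arrays 3 and 4 alone the AL difference was -0.35 (adjusted p = 0.0208) and against young arrays 1 and 2 alone it was -0.39 (adjusted p = 0.00733). The intensities before normalisation overlapped, at 149 to 168 on CR, 140 to 166 on AL and 133 to 175 on young arrays, so the difference is relative to the rest of each array.

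Slc5a2 (GE1270194), the carrier that recovers most filtered glucose, read 12.69, 12.96, 12.61 and 12.75 on the CR arrays, 12.58, 12.47, 12.48 and 12.45 on the AL arrays, and 12.28, 12.15, 12.77 and 12.90 on the young arrays. The AL arrays lay between the 2 pairs of young arrays. AL minus young was -0.03 (SE 0.32, limma adjusted p = 0.874) over all arrays, and its sign turned with the young sample: -0.34 (adjusted p = 0.0165) against young arrays 3 and 4 and 0.28 (adjusted p = 0.0299) against young arrays 1 and 2. Scaling each array to a common median in place of quantile normalisation gave -0.59 (adjusted p = 0.000268). Under it the median difference over all probes came to -0.22 for AL minus young, -0.06 for CR minus AL and -0.26 for CR minus young, against -0.05, 0.01 and -0.02. CR minus young was 0.22 (SE 0.26, adjusted p = 0.255), and its sign turned to -0.53 (adjusted p = 0.000437) under the scaling. CR minus AL was 0.26 (SE 0.32, adjusted p = 0.318), with every CR array above every AL array. The proximal tubule segment S1 and S2 markers also differed between the young samples, with a mean log2 level, over the same 10 markers, of 10.01 on young arrays 1 and 2 and 10.94 on 3 and 4. Between AL and young kidneys 2 of 11 tested were higher and 2 lower, and their part in the Slc5a2 values was not tested.

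**Figure D3:**
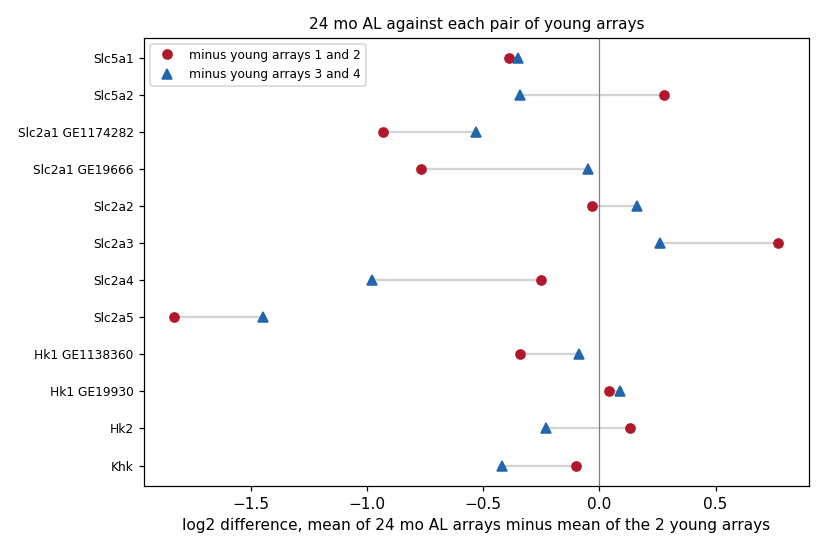
Log2 difference (horizontal axis) between the mean of the 4 AL arrays and the mean of each pair of young arrays, for the 12 tested probes; circles are set against young arrays 1 and 2, triangles against 3 and 4. Slc5a1 lies at -0.39 and -0.35, while Slc5a2 lies at 0.28 and -0.34.

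Among the facilitative carriers, Slc2a5 (GE19467), the fructose carrier GLUT5, showed the largest difference with age of the members. Its log2 level was 8.74, 8.80, 9.09 and 8.84 on the CR arrays, 9, 8.85, 8.96 and 8.83 on the AL arrays, and 10.73, 10.75, 10.39 and 10.32 on the young arrays. Every aged array lay more than 1 log2 unit below every young array, and the CR and AL arrays overlapped. It was 3.11-fold lower in AL than in young kidneys, a difference of -1.64 (SE 0.25, limma adjusted p = 1.19e-06, and 0.092 over 5 samples). It was 3.21-fold lower in CR than in young kidneys, a difference of -1.68 (SE 0.20, adjusted p = 1.17e-06, and 0.0509 over 5 samples). Against young arrays 3 and 4 alone the AL difference was -1.45 (adjusted p = 3.45e-06), and within the slide series shared by CR and young arrays the CR difference was -1.78 (adjusted p = 0.00458). CR minus AL was -0.04 (SE 0.25, adjusted p = 0.855).

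Slc2a1, the basal glucose carrier GLUT1, has 2 probes that differed in their call. Probe GE1174282 read 10.78, 10.92, 10.71 and 10.71 on the CR arrays, 10.47, 10.65, 10.58 and 10.57 on the AL arrays, and 11.54, 11.46, 11.12 and 11.06 on the young arrays. The young arrays were all above the aged ones, and AL minus young was -0.73 (SE 0.25, limma adjusted p = 0.000314, and 0.265 over 5 samples). CR minus young was -0.52 (SE 0.21, adjusted p = 0.003), and CR minus AL was 0.21 (SE 0.25, adjusted p = 0.237). Probe GE19666 read 10.83 and 11.07 on young arrays 1 and 2 but 10.17 and 10.29 on young arrays 3 and 4, which lay among the AL arrays at 10.14 to 10.24 and the CR arrays at 10.10 to 10.38. Its AL minus young difference was -0.41 (SE 0.35, adjusted p = 0.0713), and -0.05 (adjusted p = 0.689) without young arrays 1 and 2. For GE1174282 that value was -0.53 (adjusted p = 0.000514).

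Slc2a2 (GE20030), the carrier GLUT2 of the basolateral membrane, had overlapping levels in the 3 groups: 7.24 to 7.71 on CR, 7.59 to 7.87 on AL and 7.55 to 7.90 on young arrays. The AL minus young difference was 0.07 (SE 0.21, limma adjusted p = 0.682) and CR minus AL was -0.18 (SE 0.21, adjusted p = 0.389).

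Slc2a3 (GE20342), the high-affinity carrier GLUT3 known from neurons and white blood cells, read 5.72, 5.85, 5.95 and 5.99 on the CR arrays, 5.65, 5.38, 5.89 and 6.01 on the AL arrays, and 5.24, 4.69, 5.43 and 5.51 on the young arrays. It was above background on all 8 aged arrays and on 2 of 4 young arrays, and the AL and young ranges overlapped. AL minus young was 0.52 (SE 0.28, limma adjusted p = 0.0356, and 0.405 over 5 samples) and CR minus young was 0.66 (SE 0.23, adjusted p = 0.0123). Without young arrays 1 and 2 these were 0.26 (adjusted p = 0.196) and 0.41 (adjusted p = 0.06). The other Slc2a3 probe, GE21565, was above background on no array, so the result rests on GE20342 alone. Of the leukocyte markers 10 of 11 were higher in AL than in young kidneys. The mean of their log2 levels was 10.23 to 10.29 on CR, 10.35 to 10.39 on AL and 8.66 to 8.70 on young arrays. This mean was 8.69 on young arrays 1 and 2 and 8.67 on 3 and 4, where Slc2a3 averaged 4.97 and 5.47. The other tested marker, Itgam, gave -0.21 (adjusted p = 0.0752). The part of these markers in the Slc2a3 result was not tested.

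Slc2a4 (GE19942), the insulin-responsive carrier GLUT4 of fat and muscle, was above background on 4 of 4 CR, 1 of 4 AL and 2 of 4 young arrays. Its levels were 4.44 to 4.87 on CR, 3.76 to 4.63 on AL and 3.76 to 5.36 on young arrays. The difference was -0.62 for AL minus young (SE 0.35, limma adjusted p = 0.124), and CR minus AL was 0.40 (SE 0.35, adjusted p = 0.46). Without young arrays 1 and 2 the AL minus young value was -0.98 (adjusted p = 0.00467). Of the fat cell markers 3 of 6 were higher and 1 lower in AL than in young kidneys, and 0 were higher and 3 lower in CR than in AL kidneys. Of the skeletal muscle markers 2 of 7 were higher and 2 lower in AL than in young kidneys. Their part in the Slc2a4 values was not tested.

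**Figure D4:**
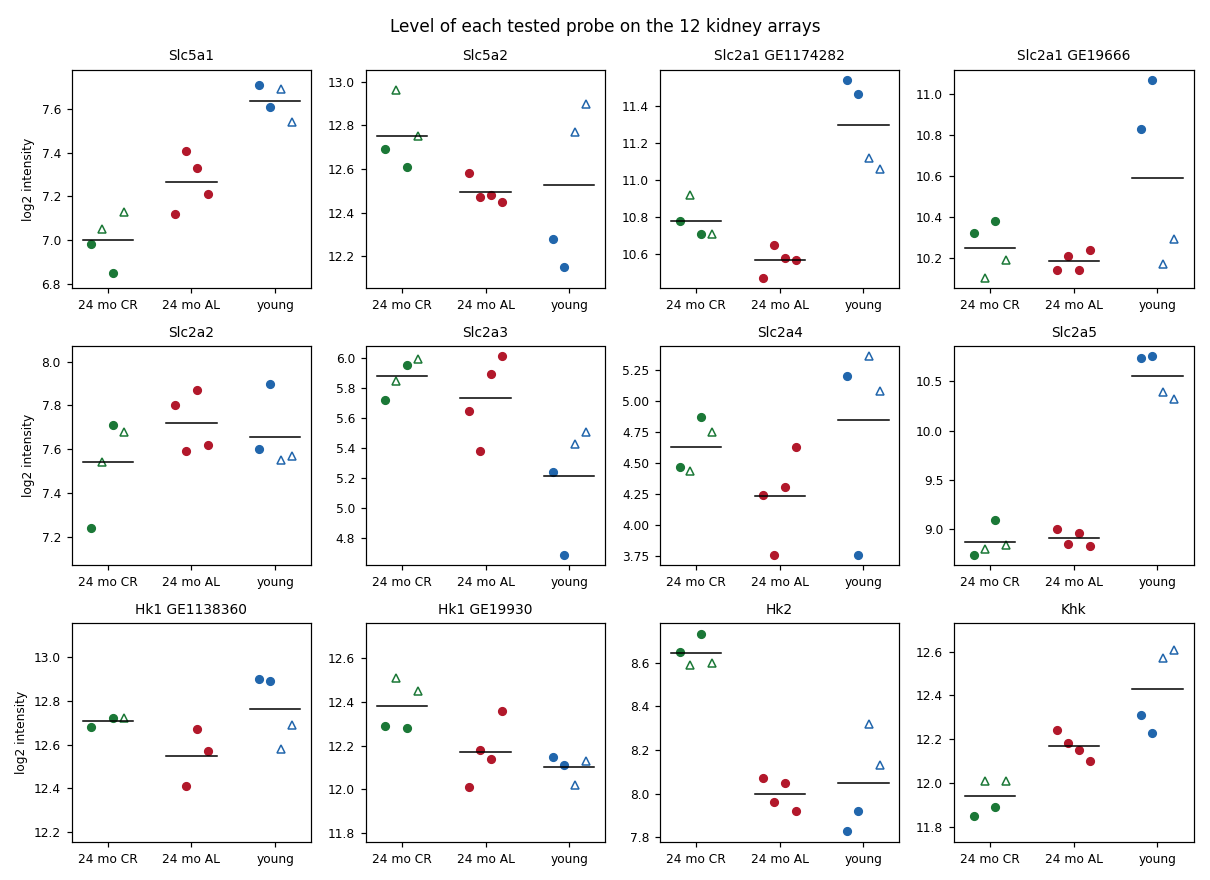
Log2 intensity (vertical axis, its own range in each panel) of the 12 tested probes on the CR, AL and young arrays, with the group mean as a line; filled circles and open triangles mark the 2 samples of a group. Slc2a5 is above 10 on the young arrays alone, and Hk2 is above 8.5 on the CR arrays alone.

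Among the kinases, Hk2 was measured by GE1215793 alone, since its other probe, GE19931, was above background on no array. On this probe Hk2, the hexokinase that insulin and hypoxia induce in other tissues, was higher under restriction than in either group fed ad libitum. It read 8.65, 8.59, 8.73 and 8.60 on the CR arrays, 8.07, 7.96, 8.05 and 7.92 on the AL arrays, and 7.83, 7.92, 8.32 and 8.13 on the young arrays. Every CR array lay above every AL and young array. It was 1.56-fold higher in CR than in AL kidneys, a difference of 0.64 (SE 0.24, limma adjusted p = 0.00191, and 1 over 5 samples), and 0.67 (adjusted p = 0.00484) within the slide series that holds both groups. CR minus young was 0.59 (SE 0.20, adjusted p = 0.000792, and 0.178 over 5 samples), and 0.57 (adjusted p = 0.0732) within the slide series that holds CR and young arrays. AL minus young was -0.05 (SE 0.24, adjusted p = 0.697), and -0.23 (adjusted p = 0.0366) without young arrays 1 and 2. Among markers of the distal tubule and loop of Henle 4 of 8 were higher and 0 lower in CR than in AL kidneys, and 2 were higher and 3 lower in CR than in young kidneys. The mean of their log2 levels was 10.95 to 10.99 on CR, 10.62 to 10.65 on AL and 10.93 to 11.15 on young arrays, so they were lower on AL arrays but overlapped between CR and young arrays. Their part in the Hk2 result was not tested. CR and AL arrays were scanned apart within their shared slide series too, so diet and scan cannot be told apart there.

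Hk1, the hexokinase found in most tissues, was measured by GE19930 and GE1138360. GE19930 read 12.29, 12.51, 12.28 and 12.45 on the CR arrays, 12.01, 12.18, 12.14 and 12.36 on the AL arrays, and 12.15, 12.11, 12.02 and 12.13 on the young arrays. Only CR and young arrays were apart, with a difference of 0.28 (SE 0.17, limma adjusted p = 0.0233, and 0.37 over 5 samples), but scaling to a common median turned it to -0.44 (adjusted p = 0.0256). AL minus young was 0.07 (SE 0.21, adjusted p = 0.553), and -0.46 (adjusted p = 0.0216) under that scaling. GE1138360, with CR array 2 and AL array 1 flagged as contaminated and left out, gave -0.21 (SE 0.22, adjusted p = 0.107) for AL minus young and 0.16 (SE 0.22, adjusted p = 0.397) for CR minus AL. For CR minus young, where GE19930 passed, GE1138360 gave -0.06 (SE 0.18, adjusted p = 0.674).

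Khk (GE21853) was lower in both aged groups than in the young group. It read 11.85, 12.01, 11.89 and 12.01 on the CR arrays, 12.24, 12.18, 12.15 and 12.10 on the AL arrays, and 12.31, 12.23, 12.57 and 12.61 on the young arrays. The CR arrays lay below all others, and AL and young arrays met at 12.24 and 12.23. The difference for CR minus young was -0.49 (SE 0.19, limma adjusted p = 0.00144, and 0.223 over 5 samples), AL minus young was -0.26 (SE 0.24, adjusted p = 0.0368, and 0.579 over 5 samples) and CR minus AL was -0.23 (SE 0.24, adjusted p = 0.131). The AL difference was -0.42 (adjusted p = 0.00101) against young arrays 3 and 4 and -0.10 (adjusted p = 0.244) against young arrays 1 and 2. It no longer passed in 6 of 12 fits that left out 1 array, or with only the 2 groups compared (adjusted p = 0.0732). With array median scaling CR minus AL was -0.39 (adjusted p = 0.0164).

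Beyond the members, 7 lists of hexose genes were described by counts in the 12-array fit. The marker counts above and the list counts below are to be read beside the shares of all probes that passed. Those were 48.1% between AL and young kidneys (20.9% higher, 27.1% lower) and 44.3% between CR and young kidneys (19.7% higher, 24.6% lower). Between CR and AL kidneys 13.4% of all probes passed, and 30.7% without young arrays 1 and 2. In that reduced fit the counts higher and lower in CR than in AL kidneys were 1 and 2 of 8 other carriers, 0 and 1 of 8 fructose and polyol genes, and 3 and 4 of 28 glycolysis genes. They were 1 and 4 of 14 galactose and glycogen genes, 0 and 1 of 12 pentose phosphate and hexosamine genes, and 1 and 6 of 25 regulators. None of the genes of these lists passed in the 5-sample fit, and list medians for AL minus young lay between -0.10 and 0.18, beside -0.05 over all probes. The other carriers were of the Slc2a and Slc5a families and included carriers of inositol and lactate. Of these, 1 of 8 was higher and 1 lower in AL than in young kidneys. In CR kidneys 0 were higher and 2 lower than in AL kidneys, and 3 were higher and 2 lower than in young kidneys. Slc5a11, a sodium-coupled inositol carrier, averaged 9.17 on CR, 9.81 on AL and 10.49 on young arrays. It differed by -0.64 (SE 0.33, limma adjusted p = 0.0196) for CR minus AL and by -0.68 (SE 0.33, adjusted p = 0.00427) for AL minus young. Without young arrays 1 and 2 the AL minus young value was -0.34 (adjusted p = 0.00205). The second Slc5a11 probe gave -0.29 and -0.21 with all arrays and did not pass. Slc5a12, a sodium-coupled lactate carrier, differed by -0.82 (SE 0.20, adjusted p = 8.86e-05) for CR minus AL. Slc5a9, measured by the probe described as similar to SGLT2, differed by 0.28 for AL minus young (SE 0.21, adjusted p = 0.0471, and 0.0864 without young arrays 1 and 2). CR minus young was 0.64 for Slc2a6 (GLUT6; adjusted p = 0.00224) and 0.54 for the inositol carrier Slc5a3 (adjusted p = 0.0106, and 0.0775 without young arrays 1 and 2).

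Of the fructose and polyol list, 1 of 8 genes was higher and 2 lower in AL than in young kidneys, 0 passed with all arrays between CR and AL kidneys, and 1 was higher and 2 lower in CR than in young kidneys. Akr1b1, the aldose reductase that makes sorbitol from glucose, read 9.76 to 10.04 on the AL arrays, against 7.79 and 7.60 on young arrays 1 and 2 and 9.23 and 9.35 on young arrays 3 and 4. The groups did not overlap, and the 2 young samples were far apart. AL minus young was 1.44 (SE 0.67, limma adjusted p = 0.00587), and 0.64 (adjusted p = 0.000345) without young arrays 1 and 2. Tkfc, which phosphorylates the glyceraldehyde made from fructose, differed by -0.62 (SE 0.21, adjusted p = 0.000184). Mpi, which interconverts mannose and fructose phosphates, differed by -0.37 (SE 0.23, adjusted p = 0.00931, and 0.0661 without young arrays 1 and 2).

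Of the glucose output list, 2 of 8 genes were higher and 1 lower in AL than in young kidneys, 0 were higher and 2 lower in CR than in AL kidneys, and 0 were higher and 3 lower in CR than in young kidneys. Pck1, the first committed enzyme of gluconeogenesis, read 13.66 to 13.86 on CR, 14.77 to 14.96 on AL and 14.14 to 14.70 on young arrays. The AL arrays were the highest and the CR arrays the lowest, without overlap. CR minus AL was -1.10 (SE 0.25, limma adjusted p = 0.000116, and 0.759 over 5 samples), and AL minus young was 0.46 (SE 0.25, adjusted p = 0.00605). G6pc1, which releases free glucose, differed by -0.96 (SE 0.26, adjusted p = 0.000254) for CR minus AL and by 0.58 (SE 0.26, adjusted p = 0.00137) for AL minus young. Pc, pyruvate carboxylase, differed by -0.78 (SE 0.21, adjusted p = 1.47e-05) for AL minus young. Fbp1, the phosphatase of gluconeogenesis, read 11.15 to 11.35 on CR, 11.97 to 12.29 on AL and 9.62 to 12.41 on young arrays. The CR arrays lay below the AL arrays, and the young arrays spread widely on both sides. CR minus AL was -0.87 (SE 1.06, adjusted p = 0.354), and it passed without young arrays 1 and 2 (adjusted p = 0.000113); its second probe gave -0.42 and passed with all arrays. For the same comparison Fbp2 gave -0.09, Pck2 0.27, G6pc3 -0.04 and Slc37a4 -0.33, and none of these passed with all arrays. Without young arrays 1 and 2, Pck2 (adjusted p = 0.0124) and Slc37a4 (adjusted p = 0.0121) passed, and the list had 1 gene higher and 4 lower in CR than in AL kidneys.

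Of the glycolysis and pyruvate list, 8 of 28 genes were higher and 6 lower in AL than in young kidneys, 0 were higher and 1 lower in CR than in AL kidneys, and 5 were higher and 8 lower in CR than in young kidneys. Pklr, a pyruvate kinase, averaged 9.97 on AL and 11.12 on young arrays, a difference of -1.16 (SE 0.28, limma adjusted p = 2.74e-05). Pfkfb2, which sets the level of an activator of glycolysis, differed by -0.96 (SE 0.29, adjusted p = 0.000163), while its second probe gave 0.43 and did not pass. The aldolase Aldoa gave 1.64 (SE 1.03, adjusted p = 0.0281) and the kinase Pgk1 gave 0.96 (SE 0.70, adjusted p = 0.0494), and without young arrays 1 and 2 they gave 0.38 (adjusted p = 0.0609) and 0.11 (adjusted p = 0.356). The lactate carrier Slc16a1 differed by -0.35 (SE 0.21, adjusted p = 0.0235) for CR minus AL. CR minus young was 0.80 for the hexokinase Hk3 (SE 0.16, adjusted p = 8.51e-05) and 0.61 for the enolase Eno2 (SE 0.17, adjusted p = 0.000139).

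Of the galactose and glycogen list, 4 of 14 genes were higher and 4 lower in AL than in young kidneys, 0 passed with all arrays between CR and AL kidneys, and 3 were higher and 3 lower in CR than in young kidneys. Ugp2, which makes UDP-glucose, differed by 0.74 (SE 0.26, limma adjusted p = 0.000365) and Pgm2 by 0.81 (SE 0.35, adjusted p = 0.00342) for AL minus young. Without young arrays 1 and 2 they gave 0.54 (adjusted p = 0.000227) and 0.44 (adjusted p = 0.00662). The kinase Gsk3b gave -0.52 (SE 0.31, adjusted p = 0.0151) and the glycogen synthase Gys1 gave -0.67 (SE 0.46, adjusted p = 0.0302), and without young arrays 1 and 2 they gave -0.22 (adjusted p = 0.0926) and -0.15 (adjusted p = 0.0922). Of the pentose phosphate and hexosamine list, 4 of 12 were higher and 1 lower in AL than in young kidneys, 0 passed with all arrays between CR and AL kidneys, and 4 were higher and 1 lower in CR than in young kidneys. Pgm3, of the hexosamine route, differed by -0.73 (SE 0.19, adjusted p = 1.27e-05) for AL minus young, but its second probe gave -0.27 and did not pass. Rpia, of the pentose phosphate route, differed by 1.31 (SE 0.57, adjusted p = 0.00384), and by 0.64 (adjusted p = 0.000225) without young arrays 1 and 2. Its second probe gave -0.11 with all arrays and did not pass. Renbp, above background on no young array, was at least 1.16-fold higher in AL kidneys (adjusted p = 0.0298, and 0.157 without young arrays 1 and 2). Such a bound sets the mean of the brighter group against the lowest signal above background on each array of the other. Gfpt2, which starts hexosamine synthesis, gave 1.03 (SE 0.18, adjusted p = 4.76e-05) for CR minus young. It was above background on all 4 CR arrays but on only 2 young arrays.

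Of the regulators, 8 of 25 genes were higher and 6 lower in AL than in young kidneys, 0 were higher and 4 lower in CR than in AL kidneys, and 4 were higher and 8 lower in CR than in young kidneys. Sgk1, a kinase that stimulates several renal carriers, read 11.95 to 12.06 on CR and 13.35 to 13.53 on AL arrays, a difference of -1.39 (SE 0.22, limma adjusted p = 5.17e-06, and 0.544 over 5 samples). Klf15, a transcription factor of gluconeogenesis, differed by -1.22 (SE 0.19, adjusted p = 5.29e-06) for CR minus AL. For AL minus young, Irs1, an adaptor of the insulin receptor, differed by -0.91 (SE 0.38, adjusted p = 0.00891). Mlx, a partner of the carbohydrate response factor, differed by -0.78 (SE 0.25, adjusted p = 0.000404). Without young arrays 1 and 2 they gave -0.51 (adjusted p = 0.0292) and -0.69 (adjusted p = 0.00413). Myc, above background on no young array, was at least 1.02-fold higher in AL kidneys (adjusted p = 0.0146). Prkab1, a subunit of AMP-activated kinase, gave 1.36 (SE 0.67, adjusted p = 0.0109) and was above background on only 2 young arrays. Without young arrays 1 and 2 the adjusted p-values of Myc and Prkab1 were 0.107 and 0.0685. CR minus young was 1.03 for the hypoxia factor Hif1a (SE 0.27, adjusted p = 0.000498) and -1.11 for the coactivator Ppargc1a (SE 0.17, adjusted p = 3.62e-06).

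Over the 12 arrays, the levels most like those of Slc2a5 among 9892 genes were those of Dusp19 (Pearson r of 0.996), Rarres1 (0.993), Hbs1l (0.992), Hspb2 (0.992) and Dusp15 (0.991), and 760 genes had an r over 0.9. Those most like Slc2a3 were Wdr83os (0.951), Ap2a1 (0.932), Cenpi (0.929), Mfap4 (0.929) and Srpra (0.918), with 15 over 0.9. These points share groups, slide series and samples, so the values only describe the arrays.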

How the data were processed

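Whole kidney RNA was measured on 12 CodeLink whole genome rat arrays. Per the file headers the deposited reports were written by CodeLink Expression Analysis 4.1.0.29054 and hold an intensity per spot, linear and with local background already subtracted, and a quality flag. A value table deposited beside them holds a ratio: intensity scaled by array and divided by a constant per probe, which matched the reports within 0.01 for 33848 of 33848 probes compared, values at the table's lowest value left out. Its column medians lay between 0.942 and 1.21, and what its constants are is not stated. Spots flagged contaminated, irregular or masked were set to missing, the 33849 gene probes were quantile normalised, a floor of 7.7 (log2 2.94, from 256 negative control spots) was set and log2 taken. The number of arrays limits the precision. Probes above background on at least 4 of 12 arrays with at least 2 values per group (25398, 75%) were fitted in R 4.3.3 with lmFit and eBayes of limma 3.58.1 (two-sided, Benjamini-Hochberg adjustment over all probes, threshold 0.05). Groups came from the labels. A second fit averaged arrays of 1 sample, which left AL with 1 sample, assumed to vary like the others. Its limit was the upper 95% limit of the repeat-spot SD of control probes over 300 units. The members and lists were chosen with earlier results of these data known. All member probes are named; from each list and comparison come the 2 largest rises and 2 largest falls that passed (a gene with several tested probes stands by its brightest), with the glucose output genes. A gene named in several comparisons is given for those where it adds a value. Itgam was picked after its values were seen. Names came from the platform annotation (16878 probes), RefSeq accession (183) or description (22); 182 had several and 16584 none. Same-numbered arrays correlated at -0.176 to 0.154 in their deviations from group means, 3 of 12 pairs over 0.1, so the numbers do not pair arrays. The 12-array fit was also run on simulated data with every array drawn independently. Such data hold no shared samples or batches, so that run cannot show how these affect the p-values.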

Additional observations from a re-analysis of the deposited data

Results flagged for a closer look

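The level of Slc2a2 on young array 2 was 7.90 on the log2 scale, while the other 3 young arrays lay between 7.55 and 7.60. Its gap took 0.854 of the range of the group, above Dixon's 95% limit for 4 values. It was the only such value among 34 groups of 4 arrays checked over the member probes, where about 1.7 would be expected by chance, and the array is 1 of the 2 young arrays with the high 3′ over 5′ ratio.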

How the results depend on the processing

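Counts of member probes past the threshold in the 12-array fit were 5 for AL against young, 1 for CR against AL and 7 for CR against young, and those of all probes 12204, 3397 and 11256. For AL against young, array median scaling and the deposited value table each gave 9 member probes, with 13749 and 13366 of all probes. The slide series as a random block (estimated correlation -0.153) gave 9 with 18575 of all probes. No filter on background gave 3 of 14, with 11438 of 33771 probes. Only the 2 groups compared gave 3 with 10181 of all probes. For CR against AL, median scaling, the value table, above background on all arrays and the random block each gave 2 member probes. Of all probes these settings gave 2357, 2227, 3238 and 4307, the 3238 out of 18337 tested. Only the 2 groups compared gave 5 with 7302 of all probes. Slide series as a fixed term gave 1 member probe with 3901 of all probes for AL against young and 1479 of all probes for CR against AL. Within 1 slide series CR against young gave 2 with 3417 of all probes; that setting gives no value for AL against young, since no series holds both. Averaging to 5 samples gave 0 member probes in each comparison and 29, 0 and 231 of all probes in limma, with 4327, 1206 and 5929 at an unadjusted p under 0.05. The tighter limit with 10 samples gave 3 member probes and 7519 of all probes for AL against young and 1062 of all probes for CR against AL. For CR against AL, leaving out young arrays 1 and 2, leaving out young arrays 3 and 4, and the 3′ over 5′ ratio as a covariate each gave 5 member probes, with 7797, 7322 and 7961 of all probes. These last settings, the fixed term and the tighter limit were chosen after seeing the data. Leaving out 1 array gave 3 to 6, 1 to 1 and 6 to 8 member probes and 10224 to 13339, 2118 to 3882 and 9520 to 12686 of all probes for the 3 comparisons; the 3 came without AL array 1, 3 or 4, and the lowest counts of all probes for CR against AL were 2118 without CR array 2, 2158 without AL array 2 and 2149 without AL array 3. Signs turned for Hk1 GE19930 in AL against young (-0.46 with median scaling, -0.45 with the value table) and CR against young (-0.44 and -0.43), for Slc5a2 in CR against young (-0.53 and -0.52), and for Slc5a2 in AL against young without young arrays 3 and 4 (0.28); sign changes between values that both missed the threshold are not listed. With the replicate number as a block, which does not pair the arrays, the counts were 5, 1 and 7 member probes and 11396, 2649 and 10553 of all probes. The causes were not tested. AL arrays form 1 sample in the 5-sample fit, so their own spread is not measured there.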
